A study of Mus musculus with 4 samples.

Results

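Growth factors that act on hepatocytes were followed in cells of the liver surface from mouse embryos with and without p57. All 21 probe sets whose only platform symbol is Hgf, Met, Mdk, Ptn, Fgf1, Fgf2, Fgf7, Fgf9, Fgf10 or Fgfr2 were taken, 10 genes of 18193 with a symbol of their own on the array. Mesothelial cells, the sheet that covers the liver, and submesothelial cells under it were dissected from C57BL/6 embryos at embryonic day 17.5. One genotype was p57+/+, the wild type. The other was p57-/-, also labelled Kip2 -/-, which lacks the cyclin-dependent kinase inhibitor encoded by Cdkn1c. Each genotype had 2 arrays, 1 in experiment 1 and 1 in experiment 2, numbered below as replicates 1 and 2. The labels do not state how the allele was made, whether a sample was 1 embryo or a pool, or what an experiment shared, and a p-value here therefore speaks for the scatter among these 4 samples alone, part of which may be technical.

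Hepatocyte growth factor (Hgf) is made by mesenchymal cells of the liver and binds the receptor tyrosine kinase MET on hepatocytes, where it drives division, movement and survival. Midkine (Mdk) and pleiotrophin (Ptn) are a pair of related heparin-binding growth factors of embryonic mesenchyme and mesothelium that promote hepatocyte growth. Fibroblast growth factors (FGFs) signal through receptors of the FGFR family together with heparan sulphate. FGF7 and FGF10 are mesenchymal ligands for the epithelial form of FGFR2, while FGF9 is known as a mesothelial and epithelial ligand, and FGF1 and FGF2 from the mesoderm help to specify the liver.

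The arrays gave a MAS5 signal, a linear brightness, and a detection call of Present, Marginal or Absent for each probe set. Between 48.5% and 50.1% of probe sets were Present on each array, and the lowest Present signal was 12.4 to 15.4. Cdkn1c gave 10255 and 9866 on the p57+/+ arrays and 7.79 and 7.28, both Absent, on the p57-/- arrays, which matches the labels. The p57+/+ arrays differed in sex-linked transcripts. A probe set of Xist, the RNA of the inactive X chromosome, gave 1484 in replicate 1 and 6.29 in replicate 2, and one of the Y-linked Eif2s3y gave 2.56 and 1734. On the p57-/- arrays both were Present, Xist at 970 and 857 and Eif2s3y at 966 and 904. Each p57-/- sample thus held transcripts of both sexes, which points to more than 1 embryo in each. Sex was not matched between the genotypes, and its part in the changes was not tested. The dissected tissue was a mixture. Of the mesothelial markers 14 of 14 were detected well enough to test. Their log2 changes had a median of 0.097, 5 lay higher in p57-/- in both experiments and 5 lower, and 4 had an unadjusted p under 0.05, Wt1 at 0.64, Bnc1 at 0.60, Alcam at 0.39 and Gpm6a at 0.35, while Upk3b was at -0.063 and Krt8 at -0.32. The hepatocyte list had 8 of 10 tested, with Alb at 47263 to 65566, and a median log2 change of 0.045. Erythroid genes had the median furthest from 0 of the 9 marker lists. Of 9 tested, 8 lay lower in p57-/- in both experiments, 6 had an unadjusted p under 0.05, and the median log2 change was -0.50, with -0.69 in experiment 1 and -0.26 in experiment 2. Their summed signal was 96959 and 102633 in p57+/+ against 67621 and 88941 in p57-/-. Over all tested probe sets, 27.9% lay higher in p57-/- in both experiments, 26.8% lower in both, and 7.67% had an unadjusted p under 0.05. No marker of these lists passed over all probe sets. Levels are therefore those of the mixture. Fewer cells of a type and less RNA per cell cannot be told apart here, and no member is assigned to a cell type.

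Transcripts of 8 of the 10 genes were detected. The test took probe sets with 2 or more Present calls among the 4 arrays, in either genotype, and 13 of the 21 qualified. Another 8, among them the only ones for Fgf2 and Fgf10, were Absent on all 4 arrays. None of the 13 passed at an adjusted p of 0.05 in limma, a linear model fitted across all 22800 tested probe sets with Benjamini-Hochberg adjustment. The background was 1 probe set, Cdkn1c, or 0.00439% of those tested. At an unadjusted p under 0.05 the count was also 0 of 13, beside 7.67% of all tested probe sets. The lowest adjusted p among the members was 0.699. All 13 intervals of the log2 change, p57-/- minus p57+/+, held 0, and 6 of them lay wholly within a 2-fold difference in either direction.

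**Figure D1:**
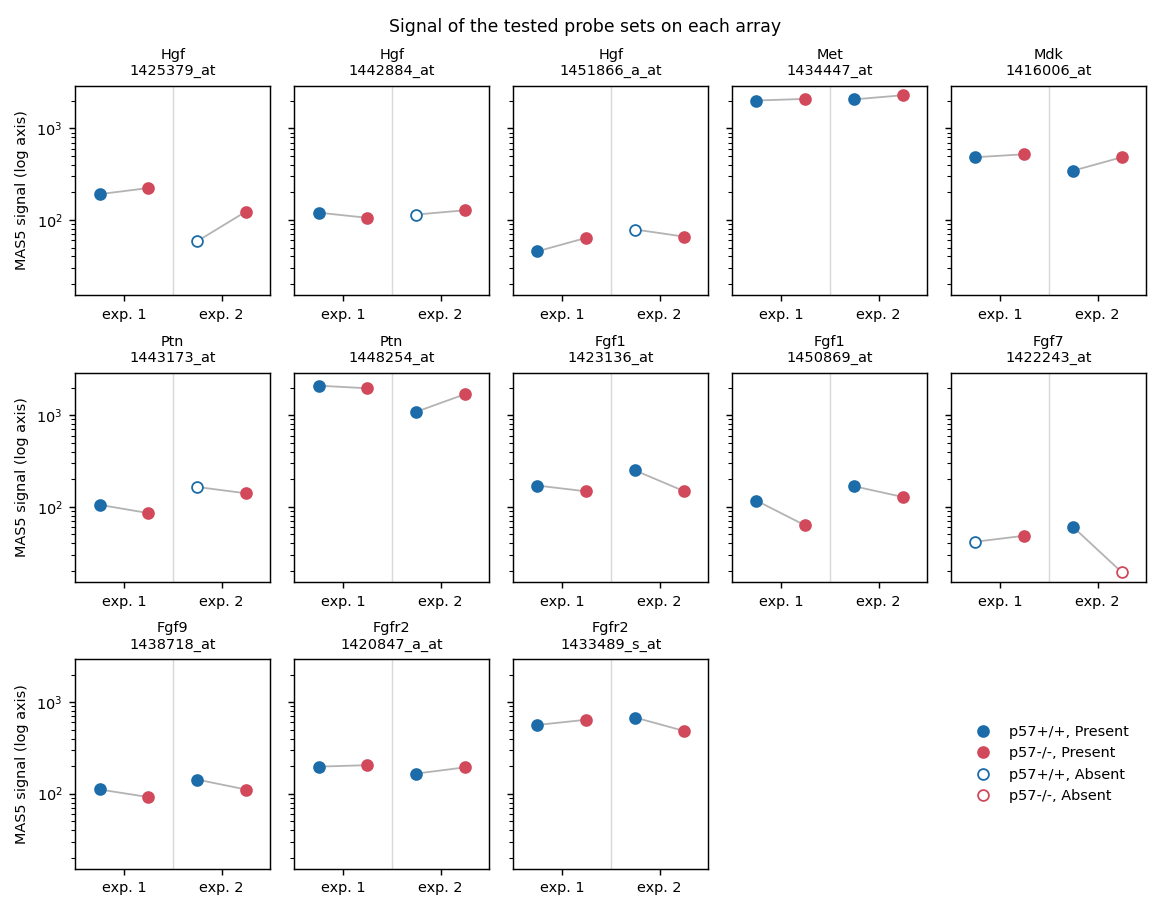
MAS5 signal (log axis) of the 13 tested probe sets on each of the 4 arrays, with a line joining the p57+/+ and p57-/- arrays of an experiment; filled points were called Present and open points Absent. The receptor gene Met stays between 2014 and 2301, while Hgf 1425379_at, Mdk and Ptn 1448254_at have their lowest signal on the p57+/+ array of experiment 2.

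The ligand gene Hgf was measured near the detection limit with 3 probe sets that did not go one way. Probe set 1425379_at gave 191 and 58.5 in p57+/+ against 223 and 124 in p57-/-. The genotypes overlapped, and the p57+/+ arrays stood 3.27-fold apart, beside a fitted difference of 1.57-fold between the genotypes. The fitted log2 change was 0.65 (SE 0.52, 95% interval -0.51 to 1.81, limma adjusted p = 0.777). The change was 0.22 in experiment 1 and 1.08 in experiment 2. Without p57+/+ replicate 2 the fitted value was -0.20, so its sign depended on which arrays were used. The second probe set, 1442884_at, gave 120 and 115 in p57+/+ against 105 and 127 in p57-/-, which overlapped, with a log2 change of -0.016 (SE 0.30). Probe set 1451866_a_at gave 45.4 and 78.6 against 63.8 and 65.8, also overlapping, with a log2 change of 0.12 (SE 0.45). All 3 were Present on 3 arrays and Absent on p57+/+ replicate 2, although the signal of 2 of them on that array lay inside or above the range of the others. The 95% intervals of the log2 change were -0.69 to 0.65 and -0.89 to 1.12, so only that of 1442884_at stayed inside 2-fold.

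Met, which encodes the HGF receptor, had the smallest SE of the tested members. Its probe set 1434447_at gave 2014 and 2073 in p57+/+ against 2099 and 2301 in p57-/-, Present on all 4 arrays. The p57-/- arrays were both above the p57+/+ arrays, by a small margin. Its log2 change was 0.10 (SE 0.13, 95% interval -0.19 to 0.40, limma adjusted p = 0.871), so a difference beyond 1.31-fold higher or 0.880-fold of the p57+/+ level lay outside the interval. The other Met probe set, 1422990_at, was Absent on all 4 arrays, at 11.5 to 68.1, and gives no level.

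Midkine was detected on every array. Mdk, with the single probe set 1416006_at, gave 484 and 345 in p57+/+ against 521 and 484 in p57-/-. Only p57+/+ replicate 2 stood below the other 3 arrays, and the genotypes met at 484. The p57+/+ mean was 415 ± 98.2 and the p57-/- mean 503 ± 26.3 (SD, n = 2). Its log2 change of 0.30 (SE 0.21, 95% interval -0.17 to 0.76) did not pass (limma adjusted p = 0.750), and the change was 0.11 in experiment 1 and 0.49 in experiment 2. Without p57+/+ replicate 2 it was 0.053.

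Pleiotrophin had the largest array-to-array difference within p57+/+ among the bright members. Ptn probe set 1448254_at gave 2103 and 1090 in p57+/+ against 1969 and 1698 in p57-/-, Present on all 4 arrays. Both p57-/- arrays lay between the p57+/+ arrays, so the genotypes overlapped. The mean was 1596 ± 716 in p57+/+ and 1833 ± 192 in p57-/- (SD, n = 2). The log2 change was 0.27 (SE 0.26, 95% interval -0.31 to 0.85, limma adjusted p = 0.819). That value turned to -0.20 without p57+/+ replicate 2. A dimmer probe set, 1443173_at, gave 105 and 165 in p57+/+ against 85.4 and 140 in p57-/-, and there the higher p57+/+ array was replicate 2, with an Absent call. Its log2 change was -0.27 (SE 0.36), opposite in sign to that of 1448254_at. The last Ptn probe set, 1416211_a_at, carries the same sequence record in the platform annotation as 1448254_at and was Absent on all 4 arrays at signals of 280 to 391.

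Hgf 1425379_at, Mdk and Ptn 1448254_at shared a low value on p57+/+ replicate 2. That array was the lowest of the 4 for 4 of the 13 tested members, the other being Fgfr2 1420847_a_at, and for 24.3% of all tested probe sets. It was the highest for 7 of the 13, beside 26.4% of all. Of the markers of mesenchyme under the surface, 9 of 10 tested, 2 (Pdgfra and Vim) were lowest on that array. Their summed signal, most of it from collagen genes, was 71997 and 79546 on the p57+/+ arrays and 92096 and 83844 on the p57-/- arrays. The stellate cell list, 9 of 10 tested, summed to 22779 and 23979 against 28016 and 26193. Reln alone gave 13343 and 14714 against 16376 and 15974 of these sums. In that list 6 genes were higher in both experiments and 2 (Ngfr and Rgs5) lower, and 3 (Hand2, Lhx2 and Colec11) were lowest on p57+/+ replicate 2. The mesothelial list summed to 20246 and 25442 against 21466 and 25032, with 0 lowest there. The part of these markers and of the sex-linked difference between the p57+/+ arrays in the low values was not tested.

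**Figure D2:**
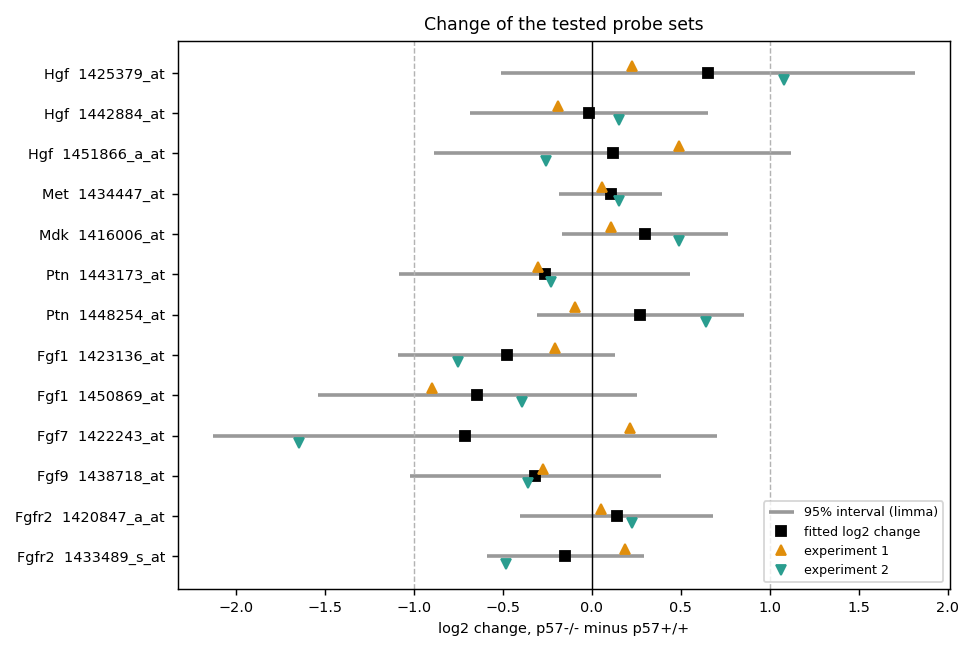
Log2 change, p57-/- minus p57+/+, of the 13 tested probe sets: the square is the fitted change, the bar its 95% interval in limma, and the triangles the change in experiment 1 and experiment 2; dashed lines mark 2-fold. Each interval crosses 0, and those of Met, Mdk, Ptn 1448254_at, Hgf 1442884_at and both Fgfr2 probe sets stay inside the dashed lines.

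Among the FGF ligands, the tested probe sets of Fgf1 and Fgf9 lay lower in p57-/- in both experiments, without passing the test. Fgf1 encodes the acidic FGF, which can bind every FGF receptor. Probe set 1423136_at gave 171 and 249 in p57+/+ against 147 and 148 in p57-/-, and the genotypes did not overlap. Its log2 change was -0.48 (SE 0.27, 95% interval -1.09 to 0.13, limma adjusted p = 0.699), the lowest p among the members. It was -0.21 without p57+/+ replicate 2 and -0.75 without p57+/+ replicate 1. The second, 1450869_at, gave 117 and 168 against 62.6 and 128, which overlapped, with a log2 change of -0.65 (SE 0.40, limma adjusted p = 0.719) that was -0.13 without p57-/- replicate 1. Both carry 1 and the same sequence record in the platform annotation, so they are not independent measurements of Fgf1. The remaining Fgf1 probe set, 1441042_at, went the other way, at 4.41 and 5.14 in p57+/+ against 48.5 and 37.8 in p57-/-. It was Absent on all 4 arrays, so no fold is given for it.

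Fgf9 was measured by probe set 1438718_at, Present on all 4 arrays, at 111 and 142 in p57+/+ against 91.8 and 111 in p57-/-. The genotypes met at 111 and did not overlap, with a log2 change of -0.32 (SE 0.31, 95% interval -1.02 to 0.39, limma adjusted p = 0.828) that was -0.14 without p57+/+ replicate 2. Its other probe set, 1420795_at, was Absent on every array at 60.1 to 133. Fgf7, the keratinocyte growth factor gene, was at the edge of detection. Probe set 1422243_at gave 41.6 (Absent) and 60.2 in p57+/+ against 48.3 and 19.2 (Absent) in p57-/-, so each genotype had 1 Present call. The log2 change of -0.71 (SE 0.63) combined 0.22 in experiment 1 and -1.65 in experiment 2, and it was -0.051 without p57-/- replicate 2.

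Fgf10 and Fgf2 were not detected. Fgf10, whose protein shares the receptor of FGF7, had 1 probe set at 7.35 to 22.7, and Fgf2, the basic FGF gene, had 1 at 3.21 to 34.0. Each was Absent on all 4 arrays, which sets no level and does not show that the transcripts were missing. The same holds for the second Fgf7 probe set at 7.07 to 67.6 and for Fgfr2 1443211_at at 3.69 to 23.3.

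**Figure D3:**
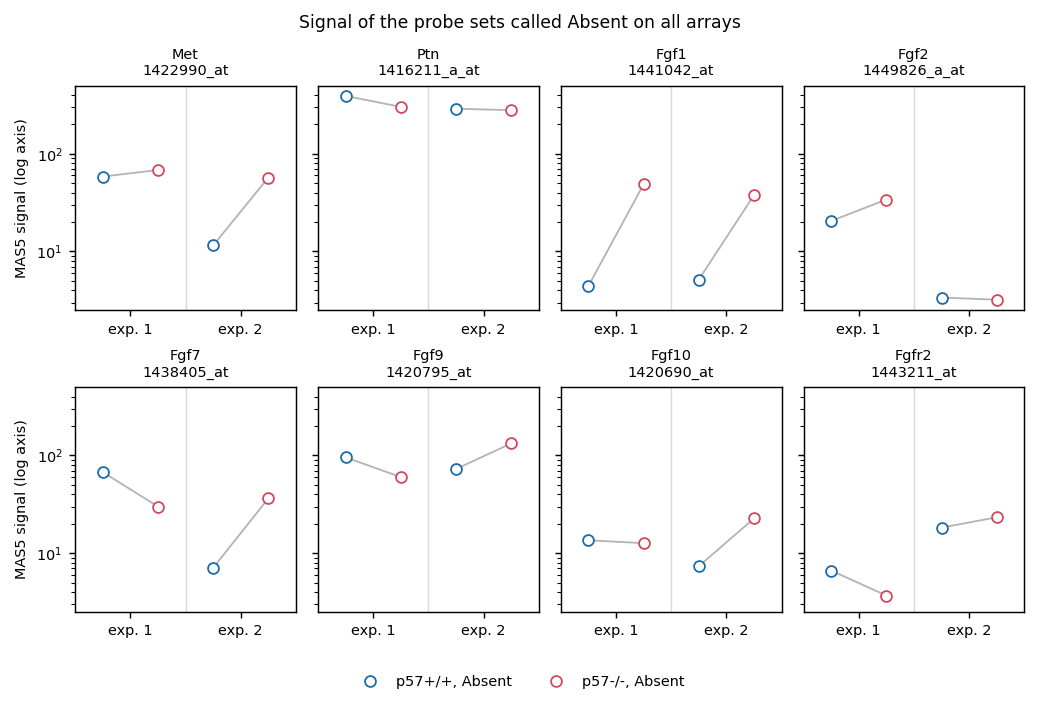
MAS5 signal (log axis) of the 8 probe sets called Absent on all 4 arrays, with a line joining the arrays of an experiment. Signals run from 3.21 to 391 and give no measured level; the Fgf1 probe set 1441042_at is higher on both p57-/- arrays without a Present call.

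Fgfr2, the gene of the receptor for FGF7 and FGF10, gave overlapping values in the genotypes with both tested probe sets. Probe set 1420847_a_at gave 197 and 166 in p57+/+ against 205 and 194 in p57-/-, with a log2 change of 0.14 (SE 0.24, 95% interval -0.40 to 0.68). Probe set 1433489_s_at, of a kind that can match more than 1 transcript, gave 563 and 678 against 642 and 485, with a log2 change of -0.15 (SE 0.20, 95% interval -0.59 to 0.29). Neither passed (limma adjusted p = 0.910 and 0.880), and the platform names did not tell the epithelial from the mesenchymal splice form.

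By count, the 13 tested members gave no common direction. Of these, 4 lay higher in p57-/- in both experiments, 4 lower in both and 5 in opposite ways, where all tested probe sets gave 27.9%, 26.8% and 45.3%. The genotypes did not overlap in 3, beside 38.6% of all tested probe sets. Met was the 1 higher, beside 19.8%, and Fgf1 1423136_at and Fgf9 were the 2 lower, beside 18.8%. None was at least 2-fold different the same way in both experiments, beside 0.447% of all. The median log2 change was -0.016 against 0.0072 over all tested probe sets, with 0.053 in experiment 1 and -0.23 in experiment 2.

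**Figure D4:**
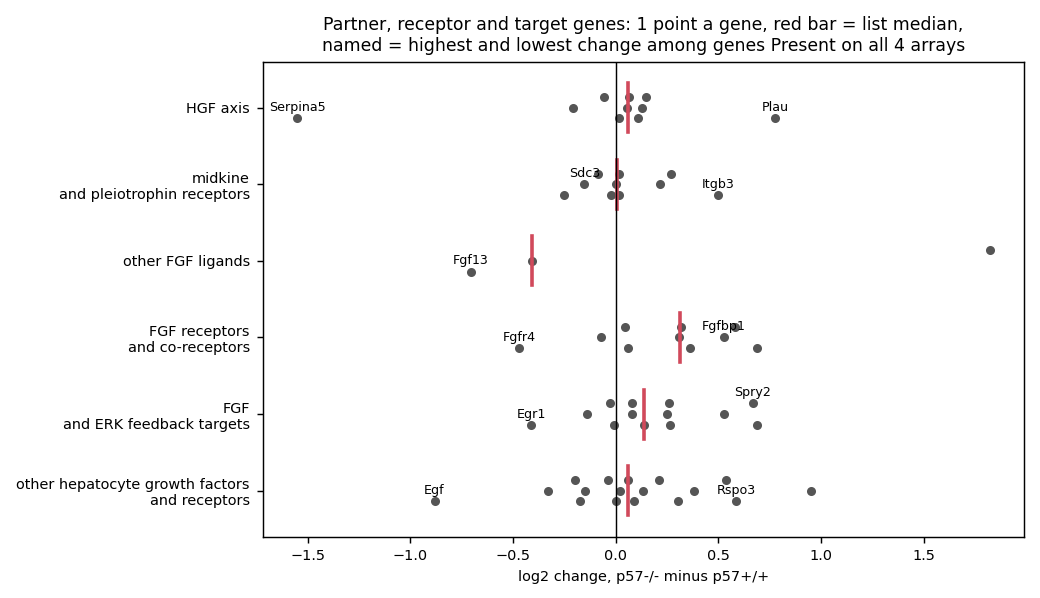
Log2 change, p57-/- minus p57+/+, of genes around the 10 members, in 6 lists; a point is a gene, taken by its brightest tested probe set, and a red bar is a list's median. The list of FGF receptors and co-receptors, which also holds FGF carriers and an adaptor, has the highest median, 0.31. No gene passed the test.

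The genes around HGF and MET were read from a list of activators, inhibitors and adaptors, 10 of 13 tested. None passed, and the median log2 change was 0.060. At an unadjusted p under 0.05 there was 1 of 10 (Serpina5), beside 7.67% of all tested probe sets. In this list 3 were higher in both experiments, 2 lower in both and 5 in opposite ways, beside 27.9%, 26.8% and 45.3% of all tested probe sets. Serpina5 had the lowest log2 change. It encodes a protease inhibitor that can block HGF activator, and it gave 147 and 143 in p57+/+ against 46.7 and 52.7 in p57-/-, 4 Present calls. Its groups lay well apart, with a log2 change of -1.55 (SE 0.34, 95% interval -2.33 to -0.78), but it did not pass over all probe sets (limma adjusted p = 0.519). Plau, the gene of urokinase, a protease that can activate pro-HGF, had the highest, at 55.8 and 59.5 against 101 and 96.7, a log2 change of 0.78 (SE 0.37, limma adjusted p = 0.653). Plau also lay higher with its other tested probe set.

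Receptors and partners of midkine and pleiotrophin had 10 of 12 genes tested and a median log2 change of 0.0085. In limma 0 passed, and 0 had an unadjusted p under 0.05, beside 7.67% of all tested probe sets. Among those Present on all 4 arrays Itgb3, an integrin chain gene, was highest at 0.50 (SE 0.26), from 1.11 in experiment 1 and -0.11 in experiment 2, and the syndecan gene Sdc3 was lowest at -0.15 (SE 0.19). Of 17 other FGF family genes only 3 were tested, and none passed. At an unadjusted p under 0.05 there was 1 of 3, beside the same 7.67%. Fgf11, the 1 with an unadjusted p under 0.05 and named for that after its value was seen, gave 61.2 and 13.3 in p57+/+ against 113 and 89.7 in p57-/- (limma adjusted p = 0.588), with Present calls on p57+/+ replicate 1 and p57-/- replicate 2 alone. Fgf13, which like Fgf11 encodes an intracellular FGF family member, was the one Present on all 4 arrays. Fgf13 gave 143 and 104 in p57+/+ against 56.5 and 98.3 in p57-/-, without overlap and with a log2 change of -0.71 (SE 0.39).

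The list of FGF receptors other than Fgfr2 and of co-receptors also held FGF carriers and adaptors, and had 10 of 12 genes tested. Of these, 6 lay higher in both experiments, 2 lower in both and 2 in opposite ways, where all tested probe sets gave the 27.9%, 26.8% and 45.3% above. The 6 were the receptor genes Fgfr1 and Fgfr3, the carrier genes Fgfbp1 and Fgfbp3, the adaptor gene Frs3, and Sdc2. Fgfr4 and Klb lay lower in both, and Fgfrl1 and Gpc3 went opposite ways. The median log2 change was 0.31, with 0.33 in experiment 1 and 0.24 in experiment 2. None passed, and 1 of 10 (Fgfr1) had an unadjusted p under 0.05, beside 7.67% of all tested probe sets. Fgfbp1, which encodes a carrier that releases FGFs from matrix, was highest of those Present on all 4 arrays at 0.53 (SE 0.26), and the hepatocyte receptor gene Fgfr4 was lowest at -0.47 (SE 0.22). Fgfr4 gave 459.5 and 336 in p57+/+ against 262 and 307 in p57-/-. Fgfr1, named after its values were seen, gave 265 and 264 against 421 and 373, a log2 change of 0.58 (SE 0.20, limma adjusted p = 0.563), with Present calls on the arrays of experiment 1 only. Marker lists differed as well. Mesenchyme and stellate markers each had 6 of 9 tested genes higher in both experiments, with medians of 0.20 and 0.17. Each had 2 genes at an unadjusted p under 0.05, Dcn and Vim in mesenchyme, and Hhip (log2 change 0.84) and Hand2 in stellate cells. Granulocyte and megakaryocyte markers had 4 of 10 higher in both and 0 lower in both, with a median of 0.26 and 3 at an unadjusted p under 0.05. Endothelial markers had a median of 0.42 in experiment 1 and -0.19 in experiment 2. Erythroid markers had 8 of 9 lower in both. The part of these markers in the values of the FGF receptor, carrier and adaptor list was not tested.

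Feedback targets of FGF and ERK signalling had 13 of 18 genes tested, 8 higher in both experiments, 2 lower in both and 3 in opposite ways, with a median log2 change of 0.14. Those counts stand beside the same background shares and the same marker values, whose part was not tested. Mesenchyme and stellate genes were each higher in 6 of 9, granulocyte and megakaryocyte genes in 4 of 10, and erythroid genes lower in 8 of 9. None passed, and 1 of 13 (Spry2) had an unadjusted p under 0.05, beside 7.67% of all tested probe sets. Spry2, which encodes a Sprouty inhibitor of receptor tyrosine kinase signalling, was highest of those Present on all 4 arrays at 0.67 (SE 0.29, limma adjusted p = 0.642), from 184 and 132 in p57+/+ to 306 and 200 in p57-/-, without overlap. The early response gene Egr1 was lowest of these at -0.41 (SE 0.22). Dusp6, an ERK phosphatase gene named after its values were seen, was at 3921 and 4374 against 4974 and 4933, a log2 change of 0.26 (SE 0.12, limma adjusted p = 0.646).

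Other hepatocyte growth factors and their receptors had 17 of 24 genes tested. Of these, 6 lay higher in both experiments, 2 lower in both and 9 in opposite ways, beside 27.9%, 26.8% and 45.3% of all tested probe sets. The median log2 change was 0.061, with 0.25 in experiment 1 and -0.16 in experiment 2. None passed, and 2 had an unadjusted p under 0.05, beside 7.67% of all tested probe sets. They were Rspo3 and the ErbB receptor gene Erbb3, at 0.54 (SE 0.16, limma adjusted p = 0.549) for Erbb3. Among those Present on all 4 arrays the Wnt amplifier gene Rspo3 was highest at 0.59 (SE 0.22), from 552 and 452 to 921 and 613, and Egf was lowest at -0.88 (SE 0.42), from 86.2 and 77.7 to 50.5 and 39.1.

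The genes whose signals over the 4 arrays were closest to those of 3 ligands were found by the root mean square difference of centred log2 signals, among 10091 or 10092 genes Present on all 4 arrays whose geometric mean signal reached 100. For Hgf 1425379_at they were Ltbp2, Fam199x and Mipol1, at differences of 0.21, 0.21 and 0.26, and 0 genes lay within 0.1. For Mdk they were Cgrrf1, Ccn4 and Ogn, at 0.012, 0.012 and 0.013. At the wider cut of 0.1, 334 genes lay near Mdk, so a pattern like that of Mdk was common. For Ptn 1448254_at they were Cd2ap, Hspa13 and Snap23, at 0.020, 0.053 and 0.056, and 35 genes lay within 0.1. With 4 arrays this likeness is a description without a test.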

How the data were processed

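The authors deposited a MAS5 signal (an intensity on a linear scale) with a detection p-value and call for each of 45101 probe sets, per the file headers. Per the labels' protocols, 250 ng of total RNA per sample was amplified and biotin-labelled by a 3′ in vitro transcription kit. The version of MAS5 is not given in the sources used here. All arrays had the same trimmed mean signal, 500.003, so they had been scaled to one target, which hides a change in total RNA. The series' value table held the same signals. Here the signals were log2 transformed without a pseudocount, the 64 controls were left out, and a two-sided limma test (version 3.58.1, R 4.3.3, variance trend, no block) set p57-/- against p57+/+. Dim probe sets are noisy on this scale, and the 4 arrays limit the precision. The script was tested on simulated data. Symbols came from the platform annotation, which gave 1 symbol for 34945 probe sets. List genes were taken by their brightest tested probe set, and Ctgf was matched as Ccn2. All members were named, and in each list the genes of highest and lowest log2 change among those Present on all 4 arrays. Genes, members and lists were chosen with earlier results of these data known. Alternatives changed the block, the scaling, the filter, the pseudocount (16), the variance trend and the arrays used.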

Additional observations from a re-analysis of the deposited data

How the results depend on the processing

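No member passed the test under any of the 10 alternatives, with 0 called in each by limma. With all 4 arrays and no filter on detection calls, 1 of 21 member probe sets had an unadjusted p under 0.05 in limma. That stood beside 2870 of 45037 probe sets. The other fits to all 4 arrays had 0 such members. Over all probe sets, 1 was called, and 30 with the experiment number as a replicate block (10 higher and 20 lower), 0 among those Present on all 4 arrays (which leaves out Cdkn1c; 1573 at an unadjusted p under 0.05), and 5 to 221 when 1 array was left out, the highest without p57-/- replicate 2. With the block, the lowest adjusted p of a member was 0.578. The labels do not state what an experiment number shared, so the main fit had no block. Deviations of arrays with the same number had a correlation of 0.0046 over the tested probe sets, which does not speak for single ones. For Hgf 1425379_at the SE was 0.33 with the block and 0.52 without. Of 125 member values under alternatives, 116 kept their direction. With quantile normalization Hgf 1442884_at turned from -0.016 to 0.027. The other 8 turned when 1 array was left out, with ranges of -0.20 to 1.50 for Hgf 1425379_at, -0.15 to 0.12 for Hgf 1442884_at, -0.28 to 0.51 for Hgf 1451866_a_at, -0.62 to 0.093 for Ptn 1443173_at, -0.20 to 0.75 for Ptn 1448254_at and -0.35 to 0.054 for Fgfr2 1433489_s_at. The cause was not tested. In these fits the lone array of a genotype is assumed to vary like the others.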
